A study of Mus musculus with 6 samples.

Results

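Connexins are the proteins of gap junctions, and pannexins are a separate family of membrane channels with a similar fold. The 9 genes described here, the connexin genes Gja1, Gja4, Gja5, Gjb2, Gjb6, Gjc1 and Gjd2 and the pannexin genes Panx1 and Panx2, were taken as the rows of the deposited expression table that carry these symbols, 9 of 43383 rows. The rule uses symbols only, not measured values. Their mRNA was measured by RNA-seq in upper-layer astrocytes (ULAs, layers II–IV) and deep-layer astrocytes (DLAs, layers V and VI) that were sorted as GFP-positive cells from the somatosensory cortex of male Aldh1l1-eGFP mice at 4 weeks of age. All 6 libraries came from this 1 genotype without treatment, 3 from ULAs and 3 from DLAs, and both layers were taken from each of 3 brains. The transgene marks cells that use the Aldh1l1 promoter, so any other cell that does so would pass the same gate. The meninges, layer I and the white matter below the cortex had been cut away, and tissue at the border of layers IV and V was lost. Which connexins and pannexins cortical astrocytes express, at what level, and whether that level differs between layers were the questions put to the table.

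A connexin spans the membrane with both ends in the cytoplasm, connexins assemble into a hemichannel, and hemichannels of neighboring cells dock to form a gap junction through which ions and small metabolites pass. In the cortex, astrocytes are joined into a network by connexin 43 (Gja1) and connexin 30 (Gjb6), with connexin 26 (Gjb2) as a further astrocytic and meningeal connexin. Connexin 36 (Gjd2) forms electrical synapses of neurons, connexins 37 and 40 (Gja4 and Gja5) belong to arterial endothelium, connexin 45 (Gjc1) to mural cells and some neurons, and pannexins 1 and 2 form channels that do not usually dock, with pannexin 1 known for the release of ATP.

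Libraries held 19.7 to 29.6 M reads, as read from the steps of the deposited values. Values are RPKM, that is, reads scaled to mRNA length and to library depth, which allows levels of different genes to be set side by side. Such scaling does not remove every difference between libraries. The ratio between layers still correlated with mRNA length, with a Spearman rho of 0.21, 0.37 and 0.10 in brains 1 to 3. The astrocyte label held against its markers, since all 10 astrocyte markers had a mean RPKM of at least 1 and summed to 8725 to 10094 RPKM per library, against 9.23 to 11.9 RPKM for 8 neuronal markers and 0.360 to 0.930 RPKM for 4 oligodendrocyte precursor markers. Markers of mature oligodendrocytes were higher, with a sum of 87.1 to 280.6 RPKM over 9 genes. Those of microglia summed to 50.8 to 65.2 RPKM over 7 genes, of which 1 had a mean RPKM of at least 1. In a sorted population, fewer cells that express a gene and less of its mRNA per cell cannot be told apart. Of the 9 genes, 3 had a mean RPKM of at least 1 and were tested (Gja1, Gjb6 and Gjb2), while the other 6 were too low to be tested.

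Gjb6 and Gjb2 are neighbors on the minus strand of chromosome 14. In mm9, the build given in the submitters' processing notes, Gjb6 (3 exons, mRNA of 2603 bases) lay at chr14:57742138-57752448 and Gjb2 (2 exons, 2404 bases) at chr14:57717439-57723539, with 18.6 kb between them. Gja1 (2 exons, 3105 bases) lay at chr10:56097106-56110225 on the plus strand. The 250 bases before the start of each of these 3 genes are shown because the genes were measured at very different levels in the same libraries (ULA means of 2230 RPKM for Gja1, 881.9 for Gjb6 and 9.82 for Gjb2). The sequences are from RefSeq on build GRCm38.p6 and run 5′ to 3′ on the strand of the gene, with matches to 4 searched motifs in capitals.
Gja1 (chr10:56377050-56377299, plus strand): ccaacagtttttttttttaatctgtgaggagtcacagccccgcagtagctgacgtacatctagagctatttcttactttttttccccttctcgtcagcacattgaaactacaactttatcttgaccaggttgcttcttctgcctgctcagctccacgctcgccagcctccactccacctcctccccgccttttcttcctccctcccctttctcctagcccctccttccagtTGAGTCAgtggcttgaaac
Gjb6 (chr14:57133612-57133861, minus strand): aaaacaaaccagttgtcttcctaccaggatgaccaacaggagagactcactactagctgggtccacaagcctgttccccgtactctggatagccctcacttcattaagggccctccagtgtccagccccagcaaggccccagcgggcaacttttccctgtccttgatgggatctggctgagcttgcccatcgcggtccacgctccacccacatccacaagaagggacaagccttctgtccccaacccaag
Gjb2 (chr14:57104703-57104952, minus strand): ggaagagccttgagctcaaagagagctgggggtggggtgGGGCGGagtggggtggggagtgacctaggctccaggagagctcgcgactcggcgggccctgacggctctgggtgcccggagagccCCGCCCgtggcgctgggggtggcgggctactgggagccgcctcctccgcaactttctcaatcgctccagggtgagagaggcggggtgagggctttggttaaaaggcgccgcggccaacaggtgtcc

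Motifs were searched on both strands, and their matches in these windows do not overlap. TATAAA was searched as the TATA box and GGGCGG as the GC box bound by Sp1. The letters CCAAT stood for the box bound by NF-Y, and TGACTCA stood for the AP-1 site. The Gja1 window held TGACTCA on the minus strand, 19 to 13 bases before the start, and 4.46% of 32841 windows of this length held that motif. Gjb2 held GGGCGG on the plus strand, 211 to 206 bases before the start, and again on the minus strand, 126 to 121 bases before it, as 32.7% of windows did at least once. None of the 4 was found in the Gjb6 window. TATAAA was in 12.4% and CCAAT in 33.9% of all windows. The Gjb2 window was also the richest of the 3 in CpG, with 18 CpG and a GC content of 69.2%, against 6 CpG and 50% for Gja1, 5 CpG and 56.8% for Gjb6, and a median of 6 CpG and 52.4% over all windows. A match is a description of the letters and not a site of binding. Windows were found for 7 of the 9 genes, those for Gjc1 and Panx2 not being in the sequences used here.

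Since the reads were 36 bases long, it was checked whether related connexins could take each other's reads. No stretch of 36 bases in the transcripts of Gja1 (3147 stretches), Gjb6 (2070) or Gjb2 (2371) was shared exactly with a transcript of any other gene of the GENCODE annotation. The coding stretches of Gjb2 and Gjb6 that resemble each other most are shown, with the differing bases in capitals (build GRCm38, minus strand, 5′ to 3′).
Gjb2 (chr14:57100504-57100539): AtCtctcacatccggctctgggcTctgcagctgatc
Gjb6 (chr14:57124557-57124592): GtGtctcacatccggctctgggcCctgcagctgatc
They differ at 3 of 36 positions. For Gja1 the nearest relative was Gja6, at 2 of 36 positions. How many mismatches the alignment allowed is not given in the sources used here, and whether reads of the more abundant Gjb6 were assigned to Gjb2 was not tested.

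Gja1 was the most abundant connexin and stood at place 27 of all rows by mean RPKM. Its RPKM was 2200.3, 2279.5 and 2211.0 in ULAs of brains 1, 2 and 3 and 1898.8, 1769.3 and 1873.7 in DLAs. Every ULA library thus lay above every DLA library, and 6.59% of the 13999 rows tested showed such a separation with ULAs above. Reads on Gja1 made up 0.549% to 0.708% of a library, 107988 to 183310 reads, for a counting error of 0.234% to 0.304%. Counting error leaves out the spread between brains, against which the difference between layers has to be judged. Means were 2230 ± 43.0 and 1847 ± 68.7 RPKM (SD, n = 3), and the ratio of ULAs to DLAs was 1.16, 1.29 and 1.18 in brains 1 to 3. The log2 fold change was 0.27 with an SE of 0.09 (95% confidence interval 0.07 to 0.48, not adjusted for the number of rows). Gja1 did not pass the test (limma, adjusted p = 0.192 over all 13999 rows). Its adjusted p ranged from 0.144 to 0.868 under the alternatives.

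Gjb6, which encodes the connexin that astrocytes acquire as they mature, had the next level, at place 50. Its RPKM was 799.5, 790.6 and 1055.5 in ULAs and 879.5, 935.7 and 1103.8 in DLAs. The layers overlapped, since the highest ULA library, from brain 3, exceeded the DLA libraries of brains 1 and 2. Within each brain the DLA value was the higher, by 1.10, 1.18 and 1.05 times, and 23.2% of the rows tested were higher in DLAs in all 3 brains. Means were 881.9 ± 150.5 and 973.0 ± 116.7 RPKM, and the log2 fold change of −0.15 with an SE of 0.09 (95% confidence interval −0.35 to 0.06) did not pass the test (adjusted p = 0.454, 0.372 to 0.972 under the alternatives).

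Gjb2 was measured at a far lower level. Its RPKM was 9.57, 9.38 and 10.5 in ULAs and 9.23, 8.67 and 12.7 in DLAs, and all ULA values lay within the range of the DLA values. Only 410 to 900 reads per library lay on this gene, for a counting error of 3.33% to 4.94%. The ratio of ULAs to DLAs was 1.04 and 1.08 in brains 1 and 2 but 0.831 in brain 3. Means were 9.82 ± 0.611 and 10.2 ± 2.16 RPKM, and the log2 fold change was −0.03 with an SE of 0.13 (95% confidence interval −0.31 to 0.25, adjusted p = 0.926). Without brain 3 its sign turned, to 0.07. No connexin or pannexin passed the test therefore, 0 of 3, where 1.63% of all rows did (228 of 13999), and 1 of the 3, Gja1, had an unadjusted p under 0.05, as did 16.4% of all rows. An exact permutation test over 3 pairs cannot give a p-value under 0.25, so none was run for single genes.

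**Figure D1:**
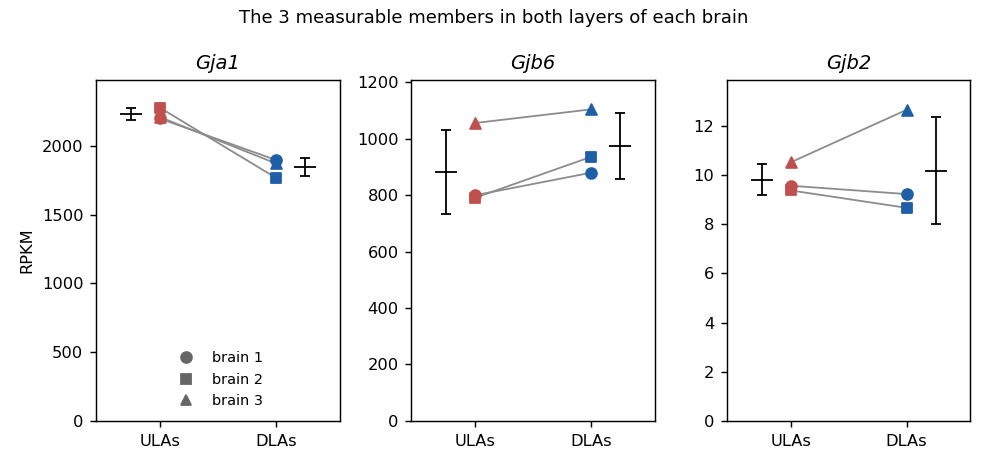
RPKM of Gja1, Gjb6 and Gjb2 (one panel each, linear axes from 0) in ULAs (red) and DLAs (blue), with lines joining the layers of a brain and black bars for the mean ± SD of 3 libraries. Gja1 was lower in DLAs in all 3 brains (1.16, 1.29 and 1.18 times higher in ULAs), Gjb6 was higher in DLAs in all 3, and Gjb2 went both ways.

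The brains differed from each other in Gjb6 and Gjb2 but hardly in Gja1. In brain 3, Gjb6 was 1.33 times the mean of brains 1 and 2 in ULAs and 1.22 times in DLAs. Gjb2 was 1.11 times that mean in ULAs and 1.42 times in DLAs. For Gja1 the values were 0.987 and 1.02. The shift of Gjb2 was thus unequal between the layers, and brain 3 was the brain in which its ratio of ULAs to DLAs lay below 1.

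Because Gja1 and Gjb6 supply most of the mRNA of the family, their proportion was read within each library. Gja1 was 2.75, 2.88 and 2.09 times Gjb6 in ULAs and 2.16, 1.89 and 1.70 times in DLAs. The ratio was higher in ULAs in each brain, by 1.27, 1.52 and 1.23 times, yet the layers overlapped because the ULA value of brain 3 lay below the DLA value of brain 1. Means were 2.58 ± 0.423 in ULAs and 1.92 ± 0.232 in DLAs. No test was made on this ratio, which was formed with the values of both genes known. As a share of the summed RPKM of all 23 connexin and pannexin genes, Gja1 took 71.5% ± 3.57 in ULAs and 65.3% ± 2.74 in DLAs, and Gjb6 took 28.1% ± 3.53 and 34.3% ± 2.68. Gjb2 took 0.314% and 0.358%. The sum itself was 3124 ± 140 RPKM in ULAs and 2834 ± 144 in DLAs, with ratios of 1.08, 1.13 and 1.10 in brains 1 to 3.

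**Figure D2:**
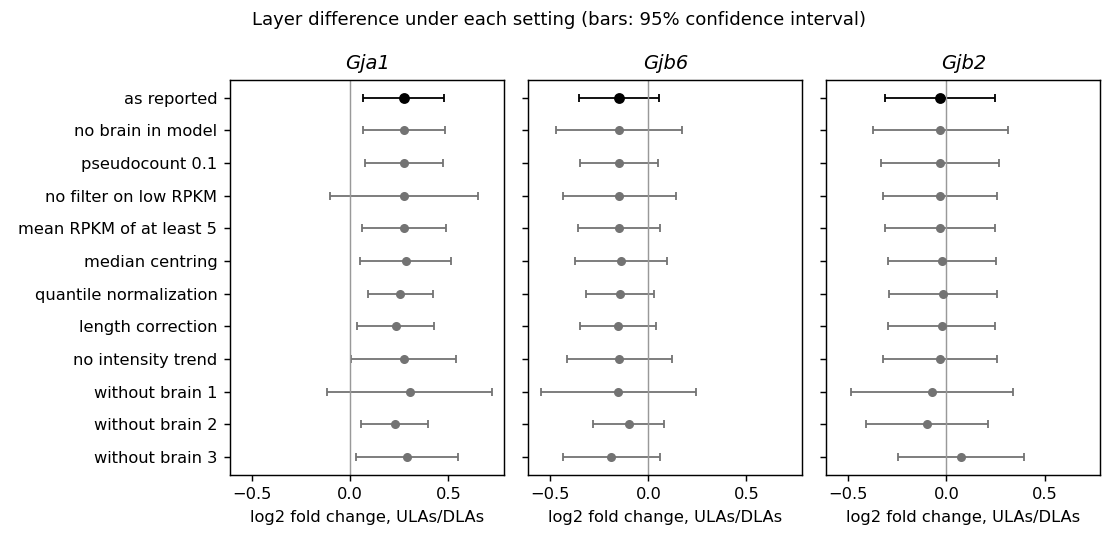
Log2 fold change of Gja1, Gjb6 and Gjb2 (ULAs over DLAs, x axis) as reported (black) and under 11 alternative settings (gray, y axis), with unadjusted 95% confidence intervals as bars. Gja1 stayed between 0.23 and 0.30 and Gjb6 between −0.19 and −0.10, whereas Gjb2 ran from −0.10 to 0.07.

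In both layers the order of the levels was Gja1, Gjb6, Gjb2 and Gjc1, and no library of one of these genes reached into the range of the next. Averaged over the 6 libraries, Gja1 was 2.20 times Gjb6, Gjb6 was 92.7 times Gjb2, and Gjb2 was 48.8 times Gjc1. From Gjc1 downward each gene overlapped its neighbor in the order.

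The 6 genes below the testing limit were seen in at most 21 reads per library. Gjc1 was the only one of them found in every library, at 0.160, 0.220 and 0.140 RPKM in ULAs and 0.270, 0.220 and 0.220 in DLAs. These were 40 reads over the 3 ULA libraries (95% Poisson interval 28.6 to 54.5) and 53 over the DLA libraries (39.7 to 69.3), a difference that was not detectable at this depth. Such intervals cover counting error only, because reads of amplified cDNA are not independent molecules.

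Gja5 and Gja4, the arterial connexins, were near the limit of detection. Gja5 was at 0.01, 0.23 and 0.06 RPKM in ULAs and at 0.23 and 0.07 RPKM in DLAs of brains 1 and 2, and was listed at 0 in DLAs of brain 3. Its 26 reads in ULAs and 25 to 26 in DLAs came mostly from 1 library of each layer, with 19 reads in ULAs of brain 2 and 20 in DLAs of brain 1. Gja4 had 2 reads in all, 1 each in ULAs of brains 1 and 3. The 8 endothelial markers summed to 0.750 to 1.32 RPKM in ULAs and 0.440 to 3.15 in DLAs, with Cdh5 and Kdr, which define endothelium, at most at 0.01 and 0.03. The highest sum was that of DLAs of brain 1, the library that held 20 reads on Gja5, where Cldn5 was at 1.08 and Slco1a4 at 1.03. The 6 arterial markers summed to 36.2 to 41.8 and 41.3 to 52.9 RPKM, most of it Hey1 (31.6 to 49.9) with Vegfc next (1.61 to 5.87), while Efnb2 was at most at 0.560 and Bmx, Gkn3 and Sema3g at most at 0.130. The part of these cells in the reads on Gja4 and Gja5 was not tested.

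The neuronal gap junction gene Gjd2 was listed at 0 in all 6 libraries, where 3 reads would have been 0.0353 to 0.0530 RPKM. The 6 markers of inhibitory neurons, which use Gjd2, summed to only 0.260 to 0.640 RPKM.

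Panx1 was at 0.190 and 0.150 RPKM in ULAs of brains 1 and 3 and at 0.210 and 0.0900 in the DLAs of the same brains. It was listed at 0 in both layers of brain 2. Summed over libraries this came to 19 reads in ULAs (11.4 to 29.7) and 18 in DLAs (10.7 to 28.4). Panx2 was at 0.1 RPKM in ULAs of brain 1, at 0.02 and 0.04 in DLAs of brains 2 and 3, and listed at 0 in the other 3 libraries, with 9 to 11 reads in ULAs and 7 to 8 in DLAs. Neither pannexin could be ordered between layers at this depth.

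**Figure D3:**
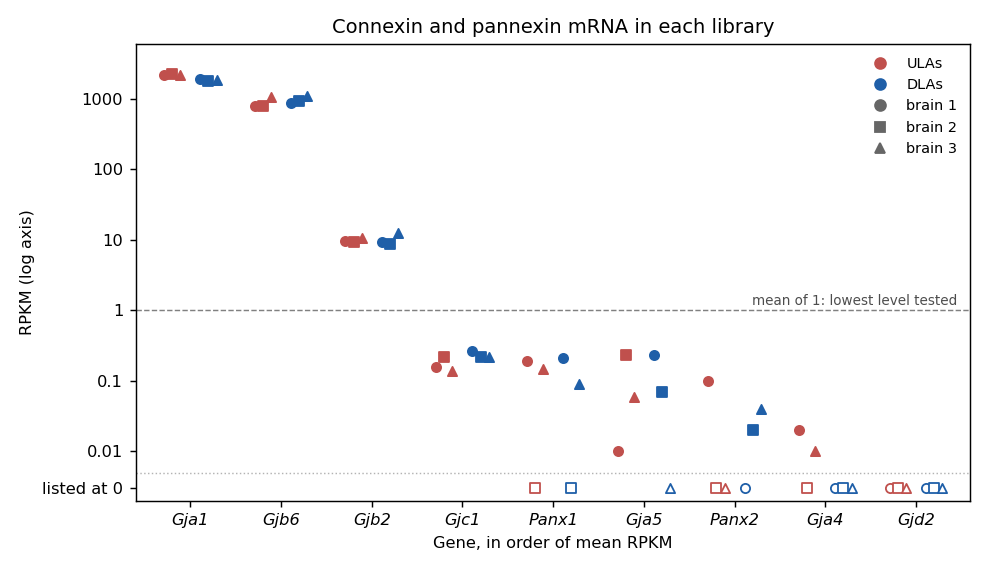
RPKM (log axis) of the 9 genes in each of the 6 libraries, in order of mean RPKM, with ULAs in red, DLAs in blue, symbols for the brains and open symbols for values listed at 0. Gja1, Gjb6 and Gjb2 stand apart from each other, and the other 6 genes stay at or below 0.270 RPKM.

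The other 14 connexin and pannexin genes of the mouse were all below a mean RPKM of 1. Together with the 6 low genes above they made up 0.0328% to 0.126% of the summed RPKM of the family, and Gja3, Gjb5, Gjd3, Gjd4 and Panx3 were listed at 0 in every library. The most abundant of them were Gjb1 and Gjc3, which encode connexins 32 and 29 of oligodendrocytes. Gjc3 was at 0.180, 0.330 and 0.530 RPKM in ULAs and 0.540, 0.880 and 1.53 in DLAs, so that the DLA value was higher in each brain. For Gjb1 the values were 0.0800, 0.200 and 1.02 against 0.570, 1.25 and 1.01, with the layers close to each other in brain 3. Over both genes, reads summed to 19, 38 and 91 in ULAs and 74, 98 and 205 in DLAs. With no filter on low values, where all 27963 rows above 0 were fitted, Gjc3 had a log2 fold change of −0.54 (limma, unadjusted p = 0.00651, adjusted p = 0.406). In that fit 0 rows were called (2799 had an unadjusted p under 0.05), so a missing call says little about Gjc3.

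Markers of oligodendrocytes moved with these connexins. The 9 markers summed to 90.0, 87.1 and 179.0 RPKM in ULAs and 177.6, 203.9 and 280.6 in DLAs, and of the 8 that were tested 6 passed, all higher in DLAs, where 0.914% of all rows did so. This count was 0 without the filter on low values, 1 without brain as a term, and 4 to 7 with 1 brain left out. The sign was the same for all 8 in each of these fits, but the filter and the brain term cannot change it. Leaving out a brain could have turned it only for Cnp, since the other markers tested were higher in DLAs in all 3 brains. The median log2 fold change of the 8 was −1.19, against −0.03 over all rows. The ULA library of brain 3 was the highest of its layer in both the markers and these connexins. The part of oligodendrocyte mRNA in the values of Gjb1 and Gjc3 was not tested.

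**Figure D4:**
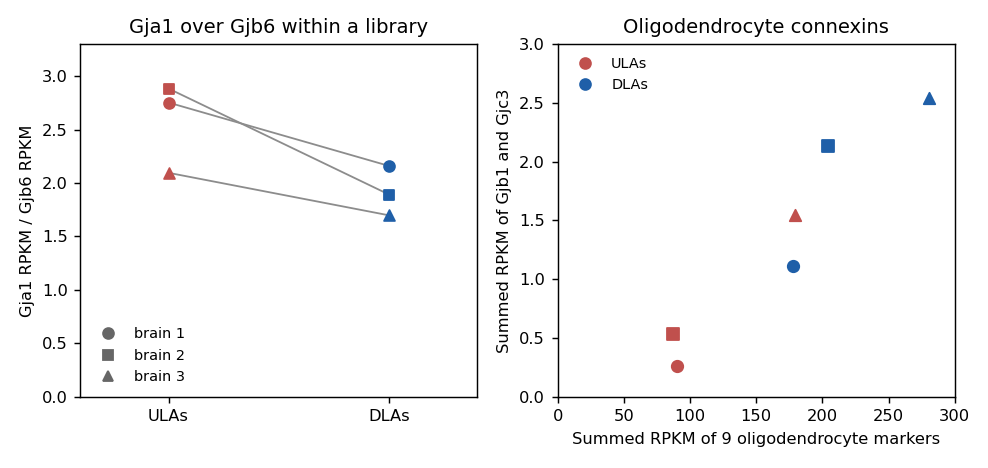
Left, Gja1 RPKM divided by Gjb6 RPKM in each library, with lines joining the layers of a brain; right, summed RPKM of Gjb1 and Gjc3 (y axis) against summed RPKM of 9 oligodendrocyte markers (x axis), 1 point per library with the brain as symbol. The ratio was 2.09 to 2.88 in ULAs and 1.70 to 2.16 in DLAs, and the oligodendrocyte connexins ranged from 0.260 to 2.54 RPKM and the markers from 87.1 to 280.6 RPKM.

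Partners of connexins were described next. Of 10 genes for connexin-binding proteins, 9 were measured and 1 was called, higher in DLAs (1.63% of all rows were called in either direction). An unadjusted p under 0.05 was found for 2 of the 9, against 16.4% of all rows, with a median log2 fold change of 0.17 against −0.03 over all rows. The gene called was Cav1, which encodes caveolin 1, the coat protein of caveolae. It was also the least abundant, at 0.630, 1.02 and 1.86 RPKM in ULAs and 2.55, 2.77 and 5.14 in DLAs. Every DLA library lay above every ULA library, but the share of all rows separated in this direction is not given here. The log2 fold change was −1.04 with an SE of 0.15 (adjusted p = 0.00814, 0.00139 to 0.332 under the alternatives). Of all rows, 0.914% were called higher in DLAs. The call was lost when brain was left out as a term (adjusted p = 0.259) and when low rows were kept (0.332). Caveolin 1 is abundant in endothelium. The 8 endothelial markers summed to 0.75, 1.01 and 1.32 RPKM in ULAs and 3.15, 0.44 and 0.64 in DLAs of brains 1 to 3. Their highest sum was thus in the DLA library with the least Cav1. Oligodendrocyte markers, given above, were higher in DLAs in each brain, as Cav1 was. The part of other cells in the difference of Cav1 was not tested. The most abundant of these genes was Cdh2, encoding N-cadherin, at 66.5 ± 8.31 and 56.5 ± 3.73 RPKM, which did not pass (log2 fold change 0.23, adjusted p = 0.364).

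ATP and adenosine outside the cell are read by purinergic receptors and cleared by ectoenzymes and uptake. Of 16 such genes, 11 were measured and 0 were called (limma), where 1.63% of all rows were. With so few genes, 0 calls say little about the list. An unadjusted p under 0.05 was found for 2 of the 11, against 16.4% of all rows. Over the 11 genes the median log2 fold change was −0.03. They ran from Adk, adenosine kinase, at 403.9 ± 51.9 RPKM in ULAs against 411.4 ± 50.4 in DLAs (−0.03 on the log2 scale, adjusted p = 0.913), to Adora3, the adenosine A3 receptor, at 1.03 ± 0.456 and 1.10 ± 0.387 (−0.07, adjusted p = 0.891). Of 8 genes for other large-pore channels and the vesicular uptake of ATP, 4 were measured and 0 were called. An unadjusted p under 0.05 was found for 1, and the median was −0.08. The shares over all rows were those just given, and no conclusion can be drawn from counts over 4 genes. Lrrc8c, a subunit of the volume-regulated anion channel and the most abundant of them, was at 32.9 ± 2.01 RPKM in ULAs against 26.2 ± 3.13 in DLAs and did not pass (0.32 on the log2 scale, adjusted p = 0.194). Its relative Lrrc8d was the least abundant, at 1.15 ± 0.344 and 1.56 ± 0.832 RPKM (−0.21, adjusted p = 0.603).

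Lastly, the rows whose pattern over the 6 libraries most resembled those of the 2 main connexins were looked up among the 8911 rows whose mean RPKM was 5 or more. For Gja1 these were Tph2 (Pearson r on log2(RPKM + 1) of 0.999), Hdlbp (0.992) and Fam171b (0.983). Tph2, known as the tryptophan hydroxylase of serotonin neurons, was at 11.0, 12 and 11.0 RPKM in ULAs and 7.61, 6.60 and 7.62 in DLAs. Its layers did not overlap either, a separation that 6.59% of the 13999 rows tested showed with ULAs above. For Gjb6 the nearest were Psmc6, a subunit of the proteasome (0.997), Usp39 (0.996) and Thyn1 (0.996). Psmc6 was at 38.7, 39.5 and 50.1 RPKM in ULAs and 42.6, 45.0 and 52.1 in DLAs, which repeats the high values of brain 3. These correlations rest on 6 libraries that share their layer and brain, and with this many rows some come out high in any case.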

How the data were processed

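The authors deposited RPKM values for 43383 rows, 1 per symbol, with the mRNA length, for 6 libraries of amplified cDNA (single-end reads of 36 bases). The submitters' processing notes name mm9, bcl2fastq 1.8.4 and CASAVA 1.8.2, and the aligner and counter are not given in the sources used here. Deposited values were cut to 2 decimals, and 100% of values in rows of up to 500 bases came out as whole reads (at most 80.2% at the next best depth), which gave depths of 19.7 to 29.6 M reads. Depths and reads served for precision only.

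The 13999 rows whose mean RPKM was 1 or more were compared on log2(RPKM + 1), a scale that understates the change of low genes, with limma 3.58.1 in R 4.3.3 (lmFit, eBayes with trend), terms for layer and brain, 2-sided tests, Benjamini-Hochberg adjustment and a threshold of 0.05. Replicate numbers were taken as brains, since 68 of 68 rows of a supplementary sheet held identical values by brain number and same-numbered libraries deviated together (r of 0.42, 0.33 and 0.34, against −0.20 to −0.16 between brains). The fit was tested on simulated data. Tables and figures were made with Python 3.11.15, pandas 2.3.3, numpy 2.4.6 and matplotlib 3.10.9.

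The genes and gene lists were chosen with earlier results of these data known. All 9 connexins and pannexins are named. From the lists, those called and the most and least abundant measured genes are named, with 3 rows most like Gja1 and Gjb6. Gjb1, Gjc3 and the marker genes named singly were picked with their values in view. The other connexins and pannexins, connexin-binding proteins, purinergic genes, large-pore channels and cell type markers were written from general knowledge. Markers not described with the results were those of mural cells (12.0 to 23.1 RPKM summed, mostly Pdgfrb) and meningeal fibroblasts (710.4 to 1563, nearly all Igfbp2, with Col3a1 at 0 in all libraries). Of the mural markers, Rgs5 was called higher in ULAs (means of 2.25 against 0.897 RPKM, log2 fold change 0.77). Its adjusted p was 0.0455 (limma, 0.0274 to 0.400 under the alternatives), and its relation to Gjc1 was not tested. Some genes of these lists are not reported here. Alternatives were dropping the brain term, the filter, the trend or each brain in turn, a pseudocount of 0.1, a filter at a mean RPKM of 5, quantile normalization, centring on the median, and a loess correction for length (span 0.5).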

Additional observations from a re-analysis of the deposited data

How the results depend on the processing

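None of the 3 tested connexins passed under any of the 11 alternatives (0 called by limma in each). Gja1 and Gjb6 kept their sign in all 11, and Gjb2 in 10. Many of these could not have turned the sign of Gja1 or Gjb6. All 3 brains shared it, so leaving out a brain must keep it. Changing the brain term, the filter or the trend leaves the fold change as it was. With each brain left out in turn, Gjb2 ran from −0.0993 to 0.0747 on the log2 scale, its sign turning without brain 3. The number of rows called was 228 (100 higher in ULAs and 128 in DLAs). It was 143 with the length correction, 144 without the intensity trend and 0 without the filter on low values, where 2799 rows had an unadjusted p under 0.05. Leaving out 1 brain gave 230 to 1113 rows, the highest without brain 3. Without the replicate block, that is, without pairing by brain, 41 rows were called and Gja1 had an adjusted p of 0.417. The pairing changed no call among the 3 connexins. Quantile normalization gave 241 rows, 57.3% of them higher in ULAs, against 43.9% as reported. Cav1 could not be fitted with a mean RPKM of at least 5. The causes were not tested. The 6 genes with a mean under 1 RPKM rest on at most 21 reads per library, which limits any statement on them.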
